A study of Mus musculus with 6 samples.

Results

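The transcripts followed here are those of 9 genes known as targets of the transcription factor p53 that are studied less often than its cell cycle arrest and apoptosis genes: Phlda3, Inka2, Aen, Ak1, Zmat3, Plk2, Plk3, Perp and Ei24. They were found by gene symbol among the 54532 genes of the table, and all 9 matched 1 row each. The 9 genes were selected on these same samples, with their difference between CTX and PBS already known. Their difference between the groups is therefore given as a description, without a p-value, and is no evidence of its own. Granulosa cells (GCs), the somatic cells that surround and nourish the oocyte, came from female ICR mice that were 3 weeks old. All mice had been given 5 IU of PMSG, a gonadotropin that makes follicles grow, 22 h before treatment. They then received PBS or 120 mg/kg of cyclophosphamide (CTX), an alkylating chemotherapy drug that damages DNA, and GCs were taken 6 h later. There were 3 samples a group, and the GCs of 3 mice were pooled for every sample, so the spread within a group is that between pools.

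p53 is held at a low level by the ubiquitin ligase MDM2. When DNA is damaged, p53 escapes this control, binds response elements near its target genes and raises their transcription. The 9 targets act at different points. Phlda3 and Inka2 encode inhibitors of the kinases AKT and PAK4, Aen encodes a nuclease, Ak1 a kinase of adenine nucleotides and Zmat3 a zinc finger protein that binds RNA. Plk2 and Plk3 encode polo-like kinases, and Perp and Ei24 encode membrane proteins.

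Promoter sequence was at hand for 7 of the 9 genes, in 12 windows of 300 bases from RefSeq on build GRCm38.p6, each running from 250 bases before a transcription start to 50 bases after it. Zmat3 and Perp have no window in that set. The windows were searched on both strands for the p53 decamer, the 10-base unit that is repeated in p53 response elements and reads the same on either strand. An exact decamer was found in 4 of the 12 windows, 1 of Inka2, that of Ei24 and both overlapping windows of Aen, and 8.36% of all 32851 windows held one. Pairs of decamers were also sought, with at most 3 mismatches in 20 bases and at most 13 bases between the decamers. The central bases CWWG, where W is A or T, had to be intact in each decamer. Such a pair was found in 3 of the 12 windows, 1 of Inka2 and both overlapping windows of Aen, which share the same pair. It was found in 6.72% of all windows. The windows of Inka2, Aen and Ei24 are shown because they hold a match. That of Phlda3 is shown because the transcript had the largest log2 difference of the 9 on the scale tested below and its window held no whole decamer. Its last bases, gaacatgt, fit the start of a decamer that the window edge would cut off, and only whole decamers were counted. Capitals mark the decamers.

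Inka2: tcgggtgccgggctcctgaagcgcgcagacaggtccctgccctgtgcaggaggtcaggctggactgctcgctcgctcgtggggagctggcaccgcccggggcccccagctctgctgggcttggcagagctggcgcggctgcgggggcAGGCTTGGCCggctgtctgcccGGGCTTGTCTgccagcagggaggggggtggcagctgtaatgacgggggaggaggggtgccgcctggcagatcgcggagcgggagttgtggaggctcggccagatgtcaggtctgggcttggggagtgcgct
Aen: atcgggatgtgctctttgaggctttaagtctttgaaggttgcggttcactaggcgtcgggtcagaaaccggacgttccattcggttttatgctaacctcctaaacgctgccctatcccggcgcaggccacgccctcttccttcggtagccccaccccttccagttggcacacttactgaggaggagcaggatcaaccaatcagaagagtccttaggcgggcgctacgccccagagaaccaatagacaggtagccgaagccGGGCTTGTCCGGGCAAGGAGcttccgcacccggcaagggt
Ei24: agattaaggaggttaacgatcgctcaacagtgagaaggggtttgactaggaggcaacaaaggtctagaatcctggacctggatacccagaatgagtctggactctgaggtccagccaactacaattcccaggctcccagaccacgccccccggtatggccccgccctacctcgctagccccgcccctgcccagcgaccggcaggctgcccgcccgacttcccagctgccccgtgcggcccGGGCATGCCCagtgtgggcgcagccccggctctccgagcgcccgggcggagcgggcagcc
Phlda3: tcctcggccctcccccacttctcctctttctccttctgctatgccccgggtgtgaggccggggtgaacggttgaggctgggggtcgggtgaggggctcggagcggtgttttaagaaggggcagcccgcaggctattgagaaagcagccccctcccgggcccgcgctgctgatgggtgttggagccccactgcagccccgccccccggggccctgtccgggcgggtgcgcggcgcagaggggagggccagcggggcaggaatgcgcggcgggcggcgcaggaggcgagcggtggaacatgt

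The Inka2 window is chr3:105705208-105705507 on the plus strand, and its pair of decamers lies 103 to 72 bases before the start with 1 mismatch and 12 bases between the decamers. By the same rule, a pair with at most 1 mismatch was found in 0.417% of all windows. The Aen window is chr7:78895677-78895976 on the plus strand, and its adjoining decamers lie 10 to 29 bases after the start with 3 mismatches. The Ei24 window is chr9:36797285-36797584 on the minus strand, and the Phlda3 window is chr1:135765835-135766134 on the plus strand. These matches describe letters in short windows and do not show where p53 binds. Of the 12 windows, 7 had at least 20 CpG dinucleotides, as 26.5% of all windows did, and the 4 windows of Ak1 had 2 to 10. The Phlda3 window was 71.7% G and C, and the median window 52.7%.

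Levels are FPKM, fragments per kilobase of gene scaled to sequencing depth, which allows levels of different genes to be compared. The rebuilt reads on genes came to 16005869 to 17790353 per PBS sample and 17727770 to 18455011 per CTX sample. On a principal component analysis, CTX replicate 2 lay at 74.7 on the first component, and the other 5 samples lay between -26.6 and 13.2. All 13 granulosa cell markers were detected, with a summed level of 13930 to 15258 FPKM after PBS and 11981 to 12869 FPKM after CTX. Inha carried most of that sum, at 9205 to 10402 FPKM after PBS and 8556 to 9180 FPKM after CTX. None of the 13 was called by limma, 4 were lower at an unadjusted p-value under 0.05, and voom called 0. In CTX replicate 2 the aromatase gene Cyp19a1 was at 6.61 FPKM, against 32.5 and 47.6 in the other CTX samples, and Amh at 179 FPKM, against 54.3 and 85.5. The summed level of 11 macrophage and leukocyte markers was 25.1 to 28.2 FPKM after PBS and 43.3, 77.1 and 30.5 FPKM in CTX replicates 1, 2 and 3. Lyz2 was the largest part of that sum, at 22.9, 45.8 and 14.7 FPKM in these CTX replicates. Of the 8 markers tested, limma and voom each called 1 higher, and 2 were higher at an unadjusted p-value under 0.05. The called gene was Cd14, at 1.07 ± 0.222 FPKM after PBS and 2.75 ± 0.419 FPKM after CTX (SD, n = 3 each, adjusted p-value 0.0347 by limma), and the leukocyte marker Ptprc was under 0.1 FPKM in all 6 samples. The smooth muscle marker Acta2 was also called higher, at 8.06 ± 0.482 and 17.3 ± 2.93 FPKM (SD, n = 3 each, adjusted p-value 0.0166 by limma). The smooth muscle markers Des and Actg2 had log2 fold changes of 0.05 and 0.35 and were not called, and Myh11 and Tagln were too low to test. In such bulk samples, fewer cells of a type and less RNA per cell cannot be told apart. Trp53, which encodes p53 itself, was at 29.9, 30.5 and 29.8 FPKM after PBS and 33.7, 48.6 and 36.5 FPKM after CTX, with an adjusted p-value of 0.217 by limma. These single genes were named after their values were seen.

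Every one of the 9 transcripts was higher after CTX, and for each the lowest CTX sample lay above the highest PBS sample. Among the 14463 genes tested, those with a mean of at least 0.5 FPKM over the 6 samples, such a separation upward was seen in 15.0%. Calls were made by limma on log2(FPKM + 0.1), and needed an adjusted p-value under 0.05 together with a difference above 2-fold on that scale. By that rule 7 of the 9 were called higher, where 0.802% of all genes tested were called higher and 0.159% lower. Because the same contrast chose the genes, nothing is read from these counts. Plk3 and Ei24 were not called. Inka2 had a PBS mean under 0.5 FPKM and passed the filter on low values through its CTX samples. The median log2 fold change of the 9 was 1.42, and that of all genes tested was -0.01.

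**Figure D1:**
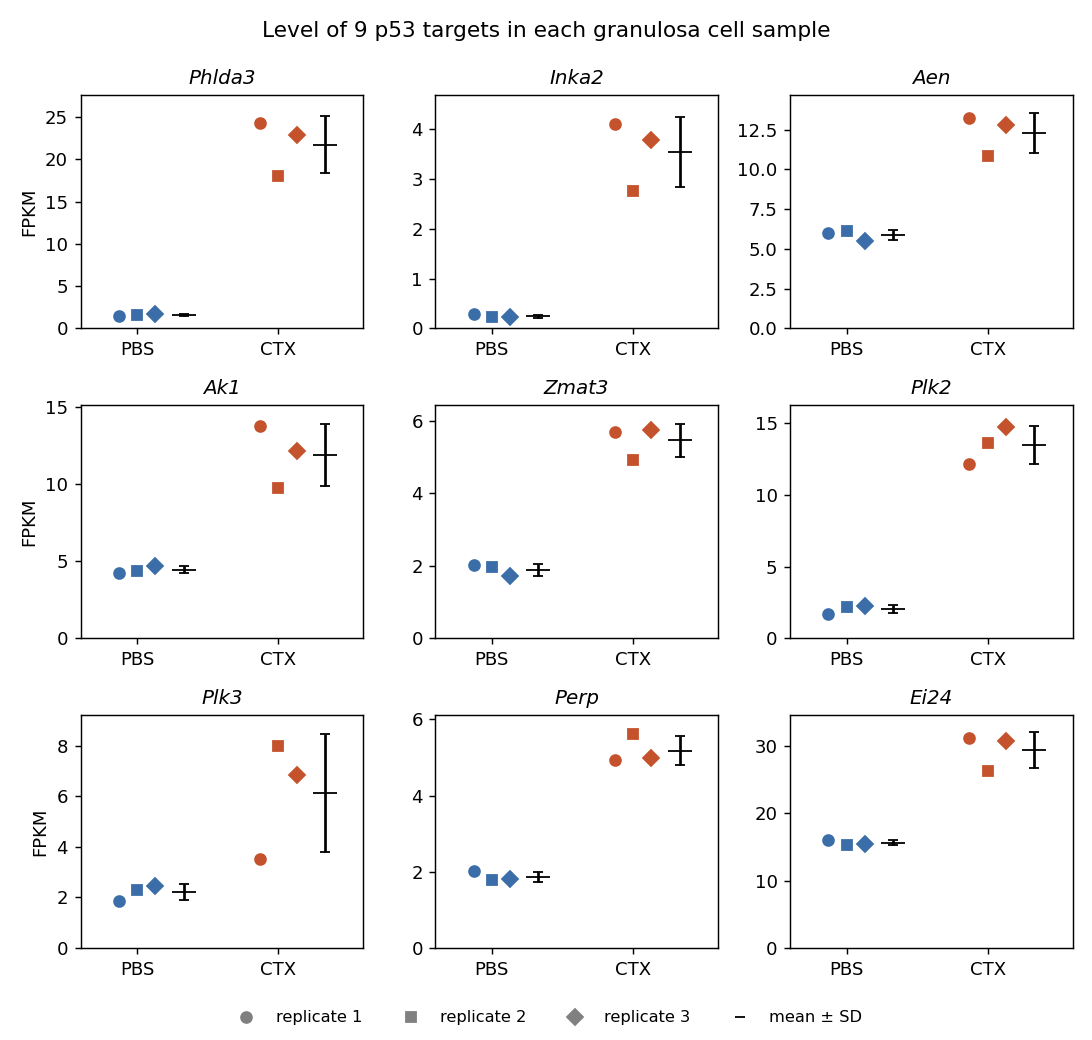
The level of each of the 9 transcripts in FPKM (linear axis from 0) in the 3 PBS (blue) and 3 CTX (red) samples, with symbols for the replicates and a bar for the mean ± SD. In every panel the CTX samples lie above the PBS samples, and CTX replicate 1 of Plk3 lies nearest to them, at 3.53 FPKM.

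Phlda3 (ENSMUSG00000041801, chr1:135766119-135769136, plus strand) encodes a small protein of a PH domain that competes with AKT for membrane lipids. It was at 1.51, 1.61 and 1.70 FPKM in the PBS samples and at 24.4, 18.0 and 23.0 FPKM in the CTX samples. The CTX samples stood far above the PBS samples, with CTX replicate 2 the lowest of them. The means were 1.61 ± 0.0956 and 21.8 ± 3.33 FPKM (SD, n = 3 each), a 13.5-fold difference. On the log2 scale the difference was 3.67 ± 0.13 (SE), which ranked 4 from the top among all genes tested. The PBS values rest on 42, 46 and 43 reads and the CTX values on 688, 498 and 641. Its level was at percentile 20.6 of the genes tested after PBS and at percentile 81.4 after CTX.

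Inka2 (ENSMUSG00000048458, chr3:105704599-105720842, plus strand) encodes a protein that binds and inhibits the kinase PAK4. It was at 0.282, 0.228 and 0.220 FPKM after PBS, from 24, 20 and 17 reads, and at 4.10, 2.75 and 3.78 FPKM after CTX, from 355, 233 and 324 reads. It was the lowest of the 9 in both groups, and CTX replicate 2 was again the lowest CTX sample. The means were 0.243 ± 0.0337 and 3.54 ± 0.707 FPKM (SD, n = 3 each), a 14.6-fold difference, the largest ratio of means of the 9. The log2 difference, which is understated for low genes by the added 0.1, was 3.39 ± 0.22 (SE). It was 1.86 with a pseudocount of 1 and 3.80 with one of 0.01, where that of Phlda3 was 3.12 and 3.74. Which of these 2 genes had the larger log2 difference thus depended on the added value.

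The kinases that these proteins hold in check were also measured. Akt1, Akt2 and Pak4 had log2 fold changes of 0.08, -0.28 and -0.16, and 0 of these 3 were called by limma or voom or had an unadjusted p-value under 0.05. The relative Inka1 was at 0.629 ± 0.169 FPKM after PBS and 0.579 ± 0.141 FPKM after CTX (SD, n = 3 each). The relative Phlda1 was at 2.13 ± 0.0895 and 3.77 ± 0.583 FPKM (SD, n = 3 each), with an adjusted p-value of 0.0556 by limma. Phlda2 was too low to test.

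Aen (ENSMUSG00000030609, chr7:78895854-78911209, plus strand) encodes an exonuclease that digests DNA and RNA and promotes apoptosis. It was at 6.02, 6.12 and 5.49 FPKM after PBS and at 13.2, 10.8 and 12.8 FPKM after CTX. The groups did not overlap, and CTX replicate 2 lay closest to the PBS samples. The means were 5.88 ± 0.337 and 12.3 ± 1.27 FPKM (SD, n = 3 each), a 2.09-fold difference, and the log2 difference was 1.05 ± 0.10 (SE). This lies just above the 2-fold limit of the call rule, and it fell under that limit at 0.95 with a pseudocount of 1, at 0.99 without CTX replicate 1 and at 1.00 without PBS replicate 3. Of its nuclease relatives, Isg20 was at 3.27 ± 0.219 and 2.51 ± 1.86 FPKM and Isg20l2 at 17.9 ± 1.06 and 18.1 ± 1.11 FPKM (SD, n = 3 each), and neither was called.

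Ak1 (ENSMUSG00000026817, chr2:32621758-32635058, plus strand) encodes the cytosolic adenylate kinase, which interconverts ATP, ADP and AMP. It was at 4.26, 4.35 and 4.71 FPKM after PBS and at 13.8, 9.74 and 12.2 FPKM after CTX. All CTX samples were higher, and CTX replicate 2 was at 0.751 of the mean of the other CTX samples. The means were 4.44 ± 0.239 and 11.9 ± 2.03 FPKM (SD, n = 3 each), a 2.68-fold difference, with a log2 difference of 1.39 ± 0.14 (SE). It was no longer called without PBS replicate 1, 2 or 3, with log2 differences of 1.36, 1.37 and 1.43. Red blood cells are known for a high level of adenylate kinase, and the summed level of 5 red blood cell markers was 319 to 454 FPKM after PBS and 359, 138 and 497 FPKM in CTX replicates 1, 2 and 3. Their part in the Ak1 values was not tested.

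Of 7 relatives of Ak1, 3 were tested and 0 were called higher by limma or voom or at an unadjusted p-value under 0.05. Ak4, a mitochondrial form, was called lower at 15.1, 14.6 and 13.8 FPKM after PBS and 7.52, 5.97 and 6.64 FPKM after CTX. Its log2 fold change was -1.10 ± 0.10 (SE), with an adjusted p-value of 0.00518 by limma. Ak3 and Ak6 had log2 fold changes of 0.03 and -0.28 and were not called. Ak5, Ak7, Ak8 and Ak9 were too low to test.

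Zmat3 (ENSMUSG00000027663, chr3:32334792-32366014, minus strand) encodes a zinc finger protein that binds RNA and affects splicing and mRNA stability. It was at 2.01, 1.97 and 1.71 FPKM after PBS and at 5.70, 4.94 and 5.76 FPKM after CTX. Its CTX samples lay close together, with replicate 2 at 0.862 of the mean of the other CTX samples. The means were 1.90 ± 0.166 and 5.47 ± 0.458 FPKM (SD, n = 3 each), a 2.88-fold difference, and the log2 difference was 1.48 ± 0.11 (SE). Its relatives Zmat1, Zmat2 and Zmat5 had log2 fold changes of -0.09, 0.11 and -0.11, and limma called 0 of these 3. None of the 3 had an unadjusted p-value under 0.05 or a voom call, and Zmat4 was too low to test.

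Plk2 (ENSMUSG00000021701, chr13:110395046-110400844, plus strand) encodes a polo-like kinase that is induced by serum and stress and takes part in centriole duplication. It was at 1.69, 2.21 and 2.21 FPKM after PBS and at 12.1, 13.6 and 14.7 FPKM after CTX. Here CTX replicate 1 was the lowest CTX sample and CTX replicate 2 was in the middle. The means were 2.04 ± 0.303 and 13.5 ± 1.32 FPKM (SD, n = 3 each), a 6.63-fold difference, and the log2 difference was 2.68 ± 0.14 (SE).

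Plk3 (ENSMUSG00000028680, chr4:117128655-117133963, minus strand), a further polo-like kinase of the stress response, started from nearly the same level and varied most among the CTX samples. It was at 1.86, 2.31 and 2.46 FPKM after PBS and at 3.53, 7.99 and 6.86 FPKM after CTX. CTX replicate 1 was at 0.476 of the mean of the other CTX samples, though still above all PBS samples. The means were 2.21 ± 0.312 and 6.13 ± 2.32 FPKM (SD, n = 3 each), a 2.77-fold difference, and the log2 difference was 1.36 ± 0.31 (SE), which was not called. It was 1.71 and called without CTX replicate 1, and 1.59 and called when limma weighted the samples by their quality. The SD of its log2 values in the CTX samples was 0.614, above those of 87.8% of the genes tested, while the other 8 had 0.104 to 0.296.

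Plk1, which drives mitosis, was at 39.6 ± 1.37 FPKM after PBS and 23.7 ± 4.48 FPKM after CTX (SD, n = 3 each), with an adjusted p-value of 0.0623 by limma. Plk4 was at 7.62 ± 0.174 and 6.98 ± 0.878 FPKM (SD, n = 3 each), and Plk5 was too low to test. Plk2 and Plk3 are also known as immediate-early genes, which respond to many stimuli within minutes to hours. Of 27 other immediate-early genes tested, 18 were called higher by limma, where 0.802% of all genes tested were. The median log2 value of these 27 over their PBS means was 1.44, 1.71 and 1.64 in CTX replicates 1, 2 and 3. It was lowest in CTX replicate 1, where Plk2 and Plk3 were lowest. The 27 genes did not share that order. For 12 of them (44.4%) CTX replicate 2 was the lowest CTX sample, as it was for 37.4% of all genes tested. The part of the immediate-early genes in the Plk2 and Plk3 values was not tested. Of the 9 transcripts, that of Plk3 held the most copies of the pentamer ATTTA per length in its 3′ untranslated region, 4 in 332 bases or 12.0 per kb, read on the transcript's own strand, against 1.21 per kb in the median coding gene tested.

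Perp (ENSMUSG00000019851, chr10:18845020-18857073, plus strand) encodes a membrane protein of desmosomes that also acts in apoptosis. It was at 2.01, 1.79 and 1.80 FPKM after PBS and at 4.95, 5.63 and 4.98 FPKM after CTX. CTX replicate 2 was the highest here, at 1.13 times the mean of the other CTX samples. The means were 1.87 ± 0.125 and 5.18 ± 0.387 FPKM (SD, n = 3 each), a 2.78-fold difference, and the log2 difference was 1.42 ± 0.10 (SE). Perp is known from epithelia, and the summed level of 8 surface epithelium markers was 27.0 to 32.1 FPKM after PBS and 35.0, 43.8 and 35.2 FPKM in CTX replicates 1, 2 and 3. Krt8 carried most of that sum, at 21.4, 33.2 and 23.4 FPKM in CTX replicates 1, 2 and 3. Krt18 was at 4.26, 6.86 and 5.71 FPKM in the same samples. Both were highest in CTX replicate 2, where Perp was highest. Of the other tested markers, Krt19, Upk3b and Msln were lowest there, and Epcam lay between. None of the 6 tested markers was called by limma or voom, 2 were higher at an unadjusted p-value under 0.05, and their part in the Perp values was not tested.

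Ei24 (ENSMUSG00000062762, chr9:36779159-36797393, minus strand) encodes a membrane protein of the endoplasmic reticulum that is needed for autophagy. It was at 16.0, 15.4 and 15.5 FPKM after PBS and at 31.3, 26.4 and 30.7 FPKM after CTX. It was the most abundant of the 9 in both groups. Its PBS samples were the tightest relative to their level, with an SD of 2.28% of the mean. The means were 15.6 ± 0.356 and 29.4 ± 2.69 FPKM (SD, n = 3 each), a 1.88-fold difference. The log2 difference was 0.91 ± 0.08 (SE), under the 2-fold limit, and Ei24 was not called in any of the 16 alternative settings that kept this limit. With no fold limit it passed, and 8 of the 9 did, where 202 of the 14463 genes tested were called higher. The same contrast chose the 9 genes, so nothing is read from this count. In absolute terms Ei24 gained 13.8 FPKM, less than the 20.2 FPKM of Phlda3 and more than the other 7.

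The order of the levels was not the same in the groups. After PBS it ran Ei24, Aen, Ak1, Plk3, Plk2, Zmat3, Perp, Phlda3 and Inka2, and the samples of Plk3 and Plk2, of Plk2 and Zmat3, and of Zmat3 and Perp overlapped. After CTX it ran Ei24, Phlda3, Plk2, Aen, Ak1, Plk3, Zmat3, Perp and Inka2. The samples of Plk2 and Aen, of Aen and Ak1, of Plk3 and Zmat3, and of Zmat3 and Perp then overlapped. Phlda3 had moved from the place before the last to the place behind Ei24. Summed over the 9 genes, the level was 35.7 to 36.0 FPKM in the PBS samples and 113, 99.9 and 115 FPKM in CTX replicates 1, 2 and 3.

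The CTX samples did not rank the genes alike. CTX replicate 2 was the lowest CTX sample for 6 of the 9, Phlda3, Inka2, Aen, Ak1, Zmat3 and Ei24, and CTX replicate 1 for Plk2, Plk3 and Perp. CTX replicate 2 was the lowest for 27 of 38 other p53 targets (71.1%) and for 37.4% of all genes tested. Over all 9 genes the median log2 value over the PBS mean was 1.54, 1.54 and 1.56 in CTX replicates 1, 2 and 3. Over the 6 genes it was 1.58, 1.23 and 1.50. The 6 were grouped because CTX replicate 2 was lowest for each, so its lower median is fixed by that choice. Over the 38 other targets it was 0.91, 0.60 and 0.86. The macrophage and leukocyte markers summed highest in the same CTX replicate 2, and Lyz2 was the largest part of that sum. Among the CTX samples, every tested macrophage and leukocyte marker but Csf1r was highest there. In CTX replicates 1, 2 and 3, theca cell markers summed to 34.3, 8.87 and 18.0 FPKM and endothelial markers to 5.94, 2.62 and 5.98 FPKM. Oocyte markers summed to 51.1, 90.7 and 85.5 FPKM and granulosa cell markers to 12869, 12052 and 11981 FPKM in the same samples. The part of these markers in the differences between CTX samples was not tested. Without CTX replicate 2 the same number of the 9, 7, were called, with log2 differences of 3.80 for Phlda3, 3.56 for Inka2, 1.52 for Ak1 and 1.13 for Plk3.

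**Figure D2:**
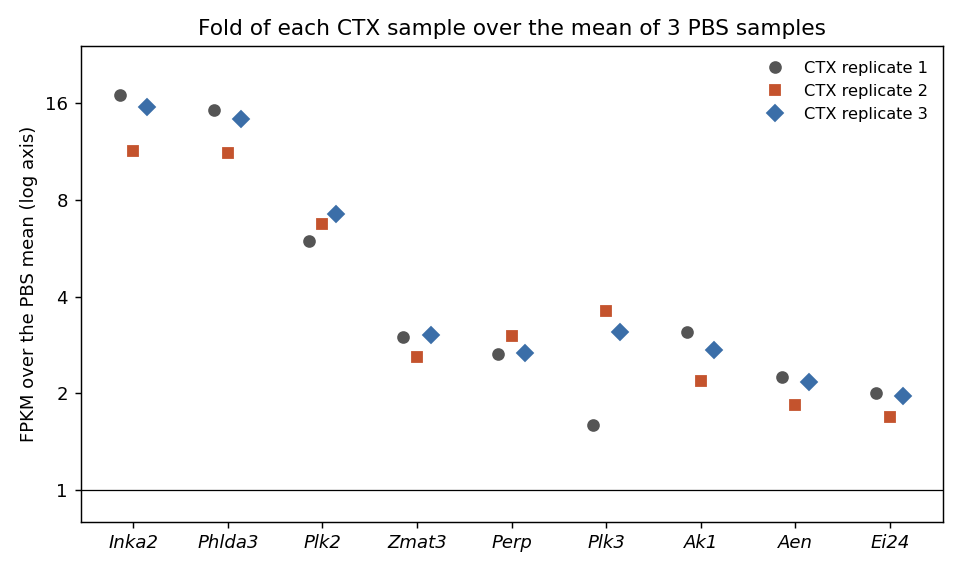
The level of each CTX sample divided by the mean of the 3 PBS samples of the same gene (log axis), ordered by the ratio of means. CTX replicate 2 (red squares) is lowest for Inka2, Phlda3, Zmat3, Ak1, Aen and Ei24 and highest for Perp and Plk3, and the ratios of Plk3 run from 1.60 to 3.62.

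The likeness of patterns was measured as the root mean square difference of log2(FPKM + 0.1), each gene centred on its own PBS mean, over the 6 samples. This measure uses the size of the CTX difference, and it says nothing of shared function. For genes near 0 after PBS that size is set in part by the added 0.1. Among the 9, the closest pairs were Aen and Ei24 at 0.11 and Zmat3 and Perp at 0.15, and Phlda3 and Inka2 were 0.23 apart. Plk2 and Plk3 were 0.98 apart. Outside the 9, Phlda3 was closest to Pmaip1 at 0.24 and Svop at 0.26, and Inka2 to the ectodysplasin receptor gene Eda2r at 0.16 and Svop at 0.23. Svop was at 0 to 0.0479 FPKM and Pmaip1 at 5 to 6 reads in the PBS samples, so their closeness to Phlda3 and Inka2 depends on the added 0.1. Aen was closest to Exoc4 at 0.05 and Mybl1 at 0.07, and Ei24 to Tiparp at 0.05 and the apoptosome gene Apaf1 at 0.06. Ak1 was closest to Pidd1 at 0.09 and Ddias at 0.11. Zmat3 was closest to Lpin1 at 0.04 and the immediate-early gene Egr1 at 0.08. Plk2 was closest to the chemokine gene Cxcl2 at 0.20 and Zfp365 at 0.22, and Perp to Pnrc1 at 0.10 and Spry2 at 0.11. Plk3 was closest to the RNA genes Snhg15 at 0.17 and Pvt1 at 0.20. Snhg15 had the same order of CTX samples as Plk3, at 10.8, 20.6 and 18.3 FPKM.

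Relatives and partners of the 9 proteins were set beside them as a list of 22 genes, of which 15 were tested. Ak4 was the 1 called lower, and 0 were called higher by limma or by voom, while 1 was higher and 2 lower at an unadjusted p-value under 0.05. The median log2 fold change of the 15 was -0.11.

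**Figure D3:**
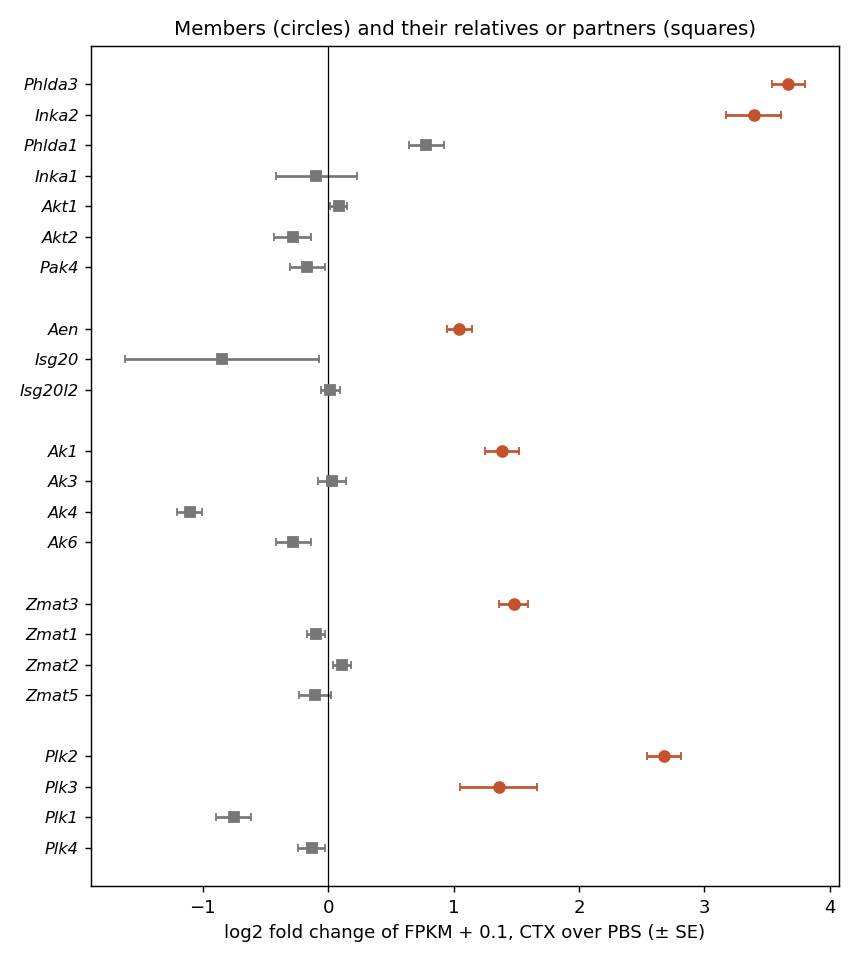
Log2 fold change of FPKM + 0.1, CTX over PBS, with its SE (bars), for 7 of the 9 genes (red circles) and their tested relatives or partners (grey squares), grouped by family. Each red circle lies right of every square of its group, and Ak4 lies at -1.10. The genes of the red circles were chosen with their CTX difference known, so nothing is read from this separation.

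The rest of the p53 programme was described from a list of 40 other known targets, of which 38 were tested. Of these, 13 were called higher and 0 lower by limma, and voom gave the same numbers. At an unadjusted p-value under 0.05, 25 were higher and 0 lower. Of all genes tested, limma called 0.802% higher and 0.159% lower. The median log2 fold change of the 38 targets was 0.81. Calls differed by role, with 4 of 7 cell cycle arrest genes, 5 of 8 apoptosis genes, 1 of 6 genes of feedback on p53, 0 of 6 genes of DNA repair and nucleotide supply and 3 of 11 genes of metabolism and stress called higher. In the repair group, voom also called 0 and 2 were higher at an unadjusted p-value under 0.05. The difference between roles was not tested.

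Phlda3 and Inka2 had log2 differences in the range of the p53 targets with the highest values. Gdf15, a stress cytokine, had a log2 fold change of 4.50 ± 0.26, Pmaip1, which encodes the death protein NOXA, one of 3.99 ± 0.23, and Eda2r one of 3.18 ± 0.14 (SE). Plk2 at 2.68 was next to Cdkn1a, which encodes the cell cycle inhibitor p21, at 2.65 ± 0.18, and above Ephx1 at 2.20 ± 0.07 and Ccng1 at 2.18 ± 0.14 (SE). These 6 other targets were called higher, with adjusted p-values from 0.000451 to 0.0019 by limma. Of them, Pmaip1 had a PBS mean of 0.123 FPKM and passed the filter on low values through its CTX samples. Aen at 1.05 and Ei24 at 0.91 stood beside the p53 regulators Trp53inp1 at 1.02 and Mdm2 at 0.87 and the cell death gene Bax at 0.81. Of those 3, Trp53inp1 was called higher, while Mdm2 and Bax had adjusted p-values of 0.0224 and 0.0211 by limma and changed by less than 2-fold. The repair genes Polk and Ercc5 had log2 fold changes of 0.60 and 0.48 and were not called. The lowest values within their roles were those of Rprm (arrest) at 0.59, Rrm2b (repair) at -0.08, Ddit4 (metabolism and stress) at -0.14 and Ccng2 (feedback) at -0.28, none of them called. The repair and nucleotide gene with the lowest value, Rrm2b, was at 2.13 ± 0.0432 FPKM after PBS and 2.04 ± 0.336 FPKM after CTX (SD, n = 3 each).

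**Figure D4:**
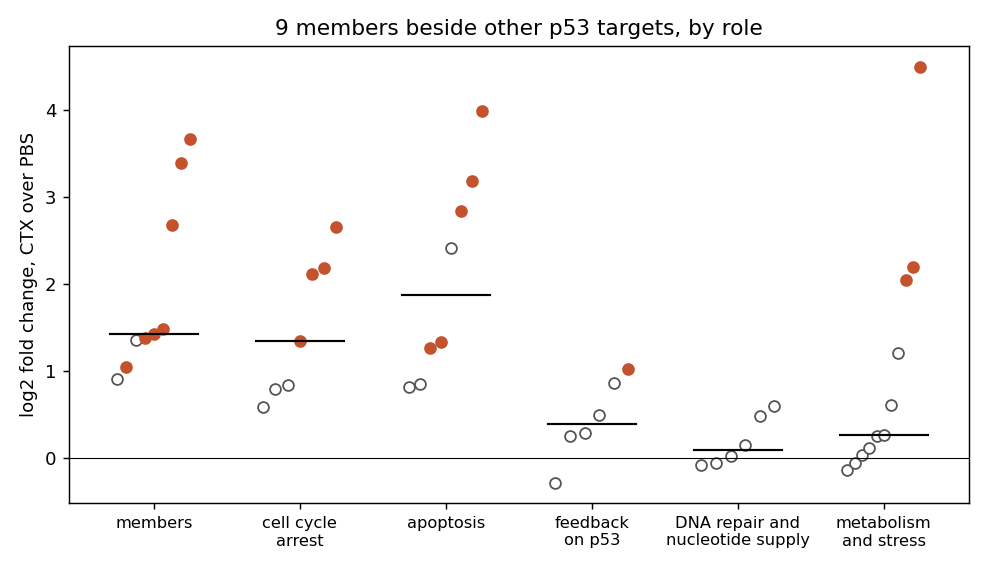
Log2 fold change, CTX over PBS, of the 9 genes (left) and of 38 other p53 targets by role, with filled points for genes called higher, open points for the others and a line at each median. The 9 genes lie between 0.91 and 3.67, and 0 of the 6 genes of DNA repair and nucleotide supply have a filled point.

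The counted exons of 7 of the 9 genes overlapped no other annotated gene. Plk3 shared 84 of its 2531 exonic bases with Tctex1d4 and Ei24 shared 324 of its 4868 with the antisense gene Gm26787, both on the opposite strand. Tctex1d4 had at most 1 read and Gm26787 at most 2 reads in any sample, against at least 84 for Plk3 and 1220 for Ei24. The coordinates of all 9 genes equalled those of GENCODE M21 on GRCm38.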

How the data were processed

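Gene expression was measured by RNA-seq in 3 PBS and 3 CTX samples of mouse GCs, grouped by their labels. The authors deposited FPKM values for 54532 genes. The submitters' processing notes name CASAVA 1.8, fastp, HISAT2 2.0.5, featureCounts 1.5.0-p3, DESeq2 1.20.0 and build mm10, and strandedness is not given in the sources used here. The table also holds the authors' group means, fold changes and p-values, which were not used. FPKM multiplied by gene length gave whole reads (within 0.01 of a read) for 100% of the values above 0, so the reads per sample could be rebuilt, and the FPKM values already carried scaling factors of 0.922 to 1.04. For a 1 kb gene, 3 reads equal 0.164 to 0.185 FPKM.

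The scale of the tests was log2(FPKM + 0.1). limma 3.58.1 under R 4.3.3 (lmFit, then eBayes with trend) was fitted to the 14463 genes that averaged 0.5 FPKM or more, with Benjamini-Hochberg adjustment over all of them. p-values measure the spread between these pooled samples only. Alternatives were other pseudocounts, filters and scalings, arrayWeights, a replicate block, eBayes without trend, voom on the rebuilt reads, no fold threshold and each sample left out. The 9 genes, the gene lists and the tests were chosen with earlier results of these data known. The genes named were the 9, the 22 relatives and partners, the 2 highest and the lowest of each role of other p53 targets by log2 fold change, and the 2 genes closest in pattern to each of the 9. Others were named after their values were seen, and 2 further genes are not reported here. Tables and figures were made with Python 3.11.15, pandas 2.3.3, NumPy 2.4.6 and matplotlib 3.10.9. Sequences came from RefSeq.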

Additional observations from a re-analysis of the deposited data

How the results depend on the processing

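No log2 difference of the 9 genes changed sign under any alternative run. Of the 9, 7 were called, against 5 to 7 when a sample was left out, 4 at a mean FPKM of at least 5, where 5 of the 9 were tested, and 4 with a replicate block, which lost Aen, Ak1 and Zmat3. Same-numbered samples did not deviate together (correlations of 0.06, 0.02 and 0.01), so the numbers give no pairing. Genes called numbered 139 (116 higher). They numbered 657 (366 higher) with arrayWeights, 50 (48 higher) with the replicate block, 254 (202 higher) with no fold threshold, and 58 to 205 (57 to 142 higher) when a sample was left out. Without PBS replicates 1, 2 and 3 they numbered 67, 66 and 58, and without CTX replicate 3 they numbered 83. The cause was not tested. Other p53 targets called higher numbered 13, and 9 to 14 with a sample left out. Log2 differences ranged from 3.12 to 3.80 for Phlda3, 1.86 to 3.83 for Inka2, 2.26 to 2.80 for Plk2 and 1.10 to 1.71 for Plk3. Inka2 rests on the fewest reads, 17 to 24 per PBS sample.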
